A study of Mus musculus with 16 samples.

Results

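The 28 genes described here carry inhibitory transmission by GABA and glycine in the hippocampus. They were picked by name from the deposited count table, which lists 55335 genes, and all 28 were found in it. Inhibitory interneurons make GABA from glutamate, load it into vesicles and release it onto other neurons. GABA-A receptors are chloride channels of 5 subunits whose makeup sets where they sit and how strongly they respond, GABA-B receptors act through G proteins, and glycine receptors are chloride channels of the same family as GABA-A receptors. A low chloride level inside the neuron, kept by the transporter Slc12a5, is what makes the channels inhibitory, and scaffold proteins such as gephyrin hold them at the synapse.

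Whole hippocampi of 16 female mice were sequenced, 4 in each of 4 groups, all aged 10 months and all fitted with a pump that infused the lateral ventricle for 28 days. The WT mice were of the strain C57BL/6J x 129S1. The 3xTg mice, a model of Alzheimer's disease, were B6;129-Psen1tm1MpmTg(APPSwe,tauP301L)1Lfa/Mmjax and so carried a mutant presenilin 1 allele and mutant human APP and tau transgenes, which are driven by a neuronal Thy1 cassette. The vehicle groups (WT-D and 3xTg-D) received 0.8% DMSO in artificial cerebrospinal fluid, and the treated groups (WT-S and 3xTg-S) received 80 µM of CAY10566, an inhibitor of stearoyl-CoA desaturase, in the same vehicle. The treatment labels and titles of the samples gave CAY10566, whereas their common treatment protocol gave ab142089. The WT mice came from another strain than the 3xTg mice, so the transgenes and the strain background cannot be told apart.

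Reads on genes numbered 15413385 to 23590149 per mouse. Thy1, whose sequence is part of the transgenes, stood at 517 to 625 CPM (counts scaled to a common library size) in the 8 WT mice and at 1566 to 2141 CPM in the 8 3xTg mice, as labelled. Groups were compared by edgeR's quasi-likelihood test across 16475 genes. A gene was called, or said to pass, where its p before adjustment was at most 0.01, and the p-values printed are Benjamini-Hochberg adjusted over the same genes, with 0.05 as the adjusted threshold. A call can thus stand beside a large adjusted p. All 28 genes passed the filter on low counts. A positive log2 fold change means a higher level in 3xTg or in CAY10566-infused mice. In whole tissue, fewer cells of a type and less RNA per cell cannot be told apart.

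Gabra2 and Gabra3, 2 GABA-A receptor alpha subunits, were higher in 3xTg than in WT mice. They were the only genes of the 28 called in the main fit of any of the 8 tests. Some others, such as Gabrg1, Gabbr2 and Kctd12, were called only under alternative settings. Over both treatments, 2 of 28 genes were called between genotypes, both higher and both past the adjusted threshold, against 7.9% of all genes called in either direction, 3.88% called higher, and 4.93% past the adjusted threshold. The vehicle groups gave 0 calls of 28, against 4.91% of all genes. Between WT-S and 3xTg-S mice 1 of 28, Gabra2, was called, against 4.26%, and between WT-D and 3xTg-S mice 1 of 28, Gabra3, against 5.69%. These last calls did not pass the adjusted threshold. CAY10566 gave 0 calls among the 28 genes in 3xTg mice (0.904% of all genes called), in WT mice (0.188%) and over both genotypes (0.832%), and the interaction of genotype and CAY10566 gave 0 calls (0.595%). At an unadjusted p under 0.05 these 5 tests with no call held 3 genes of the 28 between the vehicle groups, 2 for CAY10566 in 3xTg mice, 1 in WT mice, 0 over both genotypes and 1 for the interaction, and DESeq2 called 0 in each. The number of calls over all genes for CAY10566 depended on single mice. It rose from 149 to 802 in 3xTg mice without 3xTg-S mouse 2 and from 31 to 516 in WT mice without WT-S mouse 4. Leaving out other mice gave as few as 68 calls in 3xTg mice and 22 in WT mice. The comparisons share mice: WT-D entered 3 of the 5 pairwise tests, and the tests over both treatments or genotypes pooled the same 16 mice.

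Because Gabra2 and Gabra3 were the genes called, the 250 bases before their transcription starts are shown, from RefSeq on GRCm38.p6, 5′ to 3′ on the gene's own strand. Gabra2 has 1 annotated start in that table, and its window is chr5:71095850-71096099 on the minus strand. Gabra3 has 2 starts, of which the one further upstream is shown, chrX:72656920-72657169 on the minus strand. Capitals mark GGGCGG (a GC box), CCAAT and TATAAA, searched on both strands, with no overlap between matches in these windows.
Gabra2: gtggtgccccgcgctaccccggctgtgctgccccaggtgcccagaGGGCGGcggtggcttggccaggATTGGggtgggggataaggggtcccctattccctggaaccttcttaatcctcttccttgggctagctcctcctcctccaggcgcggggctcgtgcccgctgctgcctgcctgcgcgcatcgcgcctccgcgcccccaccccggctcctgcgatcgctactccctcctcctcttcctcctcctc
Gabra3: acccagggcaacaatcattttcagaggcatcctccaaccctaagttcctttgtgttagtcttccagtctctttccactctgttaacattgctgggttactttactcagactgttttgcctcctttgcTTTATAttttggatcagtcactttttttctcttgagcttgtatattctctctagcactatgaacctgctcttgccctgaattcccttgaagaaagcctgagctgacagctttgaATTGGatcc
The Gabra2 window held 1 GGGCGG, 1 CCAAT and 18 CG pairs, and the Gabra3 window held 1 CCAAT, 1 TATAAA and 0 CG pairs. Over 32851 RefSeq windows of this length, 32.7% held GGGCGG, 33.9% CCAAT and 12.4% TATAAA, and the median window had 6 CG pairs. Of the 28 genes, 24 had at least 1 window in the table, and 17 of their 29 windows held GGGCGG. A match is a run of letters and was not tested for binding.

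**Figure D1:**
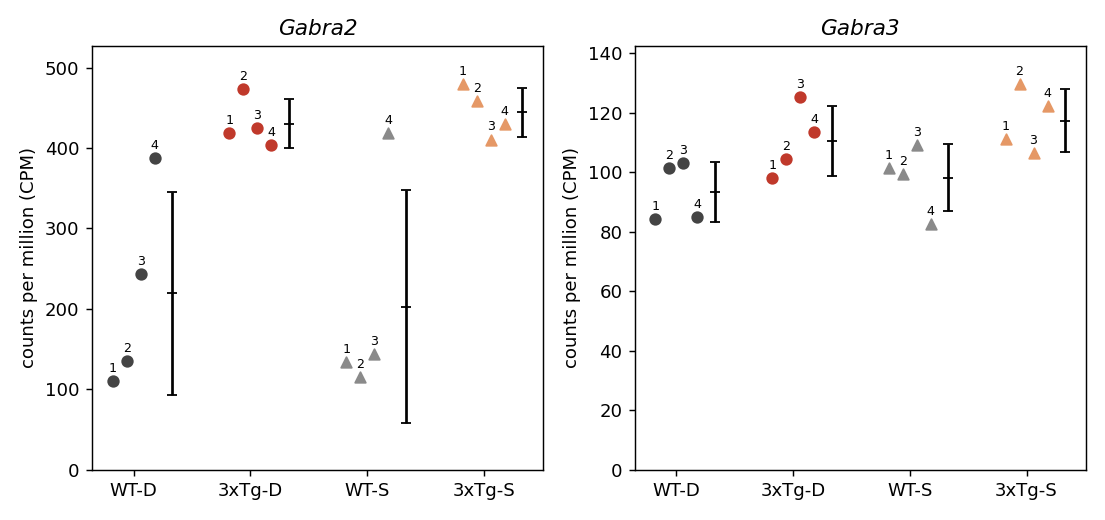
Level of Gabra2 (left) and Gabra3 (right) in CPM in each mouse, with the replicate number beside each point and the group mean ± SD (n = 4) as bars. Gabra2 lay between 404 and 479 CPM in all 8 3xTg mice and between 110.4 and 419 CPM in the 8 WT mice.

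Gabra2 codes for the alpha-2 subunit, which is common at synapses on the cell body and the axon initial segment of pyramidal cells. The gene lies at chr5:70957597-71095849 (GRCm38, minus strand). Gabra2 stood at 110.4, 135, 244 and 387 CPM in vehicle WT mice 1 to 4 and at 134, 115, 144 and 419 CPM in treated WT mice, and at 419, 474, 425 and 404 CPM in vehicle 3xTg mice and 479, 459, 411 and 430.1 CPM in treated 3xTg mice. All 3xTg mice were high and close together, whereas 5 WT mice were low, WT-D mouse 3 was between, and WT-D mouse 4 and WT-S mouse 4 reached or neared the 3xTg level. The vehicle groups did not overlap, and of the CAY10566 groups WT-S mouse 4 overlapped the 3xTg-S range. The highest WT mouse had 3.80 times the level of the lowest, against 1.19 times among 3xTg mice. Among the other 27 genes the WT ratio was 1.12 to 1.45, and among 9846 genes with a mean of at least 10 CPM its median was 1.26 and 37 of them reached the ratio of Gabra2.

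Over both treatments Gabra2 averaged 211 ± 126 CPM (SD, n = 8) in WT and 437 ± 29.0 CPM (SD, n = 8) in 3xTg mice, a log2 fold change of 1.05 ± 0.26 (SE, adjusted p = 0.0232). The mean difference passed the test although the WT mice spread over most of it and WT-S mouse 4 lay within the 3xTg range. It was called in all 16 fits that left out 1 mouse, with log2 fold changes of 0.96 to 1.32, and missed the adjusted threshold in 2 of them, without WT-S mouse 1 or 3 (highest adjusted p = 0.0524). The vehicle pair alone gave a log2 fold change of 0.98 ± 0.32 (SE, adjusted p = 0.224), and the CAY10566 pair gave a log2 fold change of 1.12 ± 0.35 (SE, adjusted p = 0.214). Of these the CAY10566 pair passed the threshold, but it did so in 1 of 8 fits that left out a mouse, the one without WT-S mouse 4 (log2 fold change 1.75, adjusted p = 9.71e-06), and not by DESeq2 or with choroid plexus markers as a covariate. It was called with median-ratio scaling, all 16 mice in 1 fit or the share of reads outside genes as a covariate, short of the adjusted threshold. Without the count filter (adjusted p = 0.00705) or with the replicate block (adjusted p = 0.0267) it passed that threshold. Without WT-D mouse 4 the vehicle pair also passed (log2 fold change 1.40, adjusted p = 0.0205), as did WT-D against 3xTg-S (log2 fold change 1.43, adjusted p = 0.0245), which gave a log2 fold change of 1.01 ± 0.32 (SE, adjusted p = 0.181) with all mice. CAY10566 gave a log2 fold change of -0.03 ± 0.26 (SE, adjusted p = 1) over both genotypes, with a 95% interval of -0.58 to 0.52. A change of any size within that interval could thus not be excluded at this spread.

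The WT mice with more Gabra2 also had more reads outside annotated genes. That share was 11.9% in WT-D mouse 3, 12.5% in WT-D mouse 4 and 13.1% in WT-S mouse 4, and 8.55 to 10.6% in the other 5 WT mice. Among 3xTg mice it spanned 7.82 to 15.1% while Gabra2 stayed within 404 to 479 CPM. With the share as a covariate the genotype difference was as large (log2 fold change 1.15, adjusted p = 0.00343). Across all mice, with group held in the fit, Gabra2 was not called for the share. Gabra2 gave a log2 change of 0.15 ± 0.06 per percentage point of the share (SE, adjusted p = 0.0981). That fit was an alternative added after the data were seen. The cause of the spread of Gabra2 among WT mice was not tested. WT-D mouse 4 had the highest summed choroid plexus markers as well (749.5 CPM, against 30.3 to 302 CPM in the other 15 mice), and with that sum as a covariate, an alternative added after the data were seen, Gabra2 gave log2 fold change 1.25, adjusted p = 0.0172.

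Gabra2 lies in a cluster of 4 GABA-A receptor genes on chromosome 5, and none of the other 3 was called between genotypes. Gabrg1, coding for a gamma subunit, ends 0.115 Mb from it. Gabrg1 stood at 35.1, 49.2, 38.6 and 35.6 CPM in vehicle WT mice 1 to 4 and at 48.7, 43.3, 50.2 and 37.4 CPM in treated WT mice, and at 44.9, 49.9, 50.6 and 44.8 CPM in vehicle 3xTg mice and 49.2, 48.5, 40.1 and 41.2 CPM in treated 3xTg mice. WT-D mouse 2 lay within the 3xTg-D range, and the CAY10566 groups overlapped widely. Gabrg1 gave a log2 fold change of 0.27 ± 0.10 (SE, adjusted p = 0.323) between the vehicle groups and a log2 fold change of 0.13 ± 0.08 (SE, adjusted p = 0.538) over both treatments. Without WT-D mouse 2 the vehicle pair passed the threshold (log2 fold change 0.39, adjusted p = 0.0357).

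Gabra4, an alpha subunit found mostly outside synapses with the delta subunit, and Gabrb1, a beta subunit, sit head to head 0.474 and 0.562 Mb from Gabra2. Gabra4 stood at 150.3, 156, 145 and 151 CPM in vehicle WT mice 1 to 4 and at 162, 170.0, 159 and 143 CPM in treated WT mice, and at 166, 169, 163 and 151 CPM in vehicle 3xTg mice and 153, 165, 145 and 139 CPM in treated 3xTg mice. Of the 4 3xTg-D mice 3 were above the WT-D range, whereas the CAY10566 groups overlapped, and its interaction test gave a log2 fold change of -0.18 ± 0.09 (SE, adjusted p = 0.788). Gabrb1 was at 262 to 458 CPM over the 16 mice and gave a log2 fold change of -0.0025 ± 0.09 (SE, adjusted p = 0.997) for genotype. Within 3 Mb of Gabra2, 25 genes were tested and 4 were called between genotypes, against 7.9% of all genes. They were Gabra2 itself, around which the region was set, and Gm42732, Spata18 and Gm34583, of which the last 3 were named after their values were seen.

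Gm42732, an unverified transcript 2.22 Mb from Gabra2 at chr5:73311364-73312560, ordered the mice much as Gabra2 did. Gm42732 stood at 21.9, 25.3, 36.0 and 44.1 CPM in vehicle WT mice 1 to 4 and at 26.4, 22.9, 26.3 and 48.8 CPM in treated WT mice, and at 48.3, 39.5, 45.3 and 44.2 CPM in vehicle 3xTg mice and 49.0, 50.6, 48.1 and 49.4 CPM in treated 3xTg mice. WT-D mice 3 and 4 and WT-S mouse 4 were again the highest WT mice. Over both treatments Gm42732 gave a log2 fold change of 0.57 ± 0.15 (SE, adjusted p = 0.0309). It lies within the span of Ociad1, so reads of these genes may not be told apart, and Ociad1 gave a log2 fold change of 0.0029 ± 0.038 (SE). Spata18 (log2 fold change -0.90 ± 0.26) and Gm34583 (-0.47 ± 0.14) were lower in 3xTg mice, at 0.193 to 1.70 CPM and 3.79 to 11.1 CPM over the 16 mice, respectively.

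**Figure D2:**
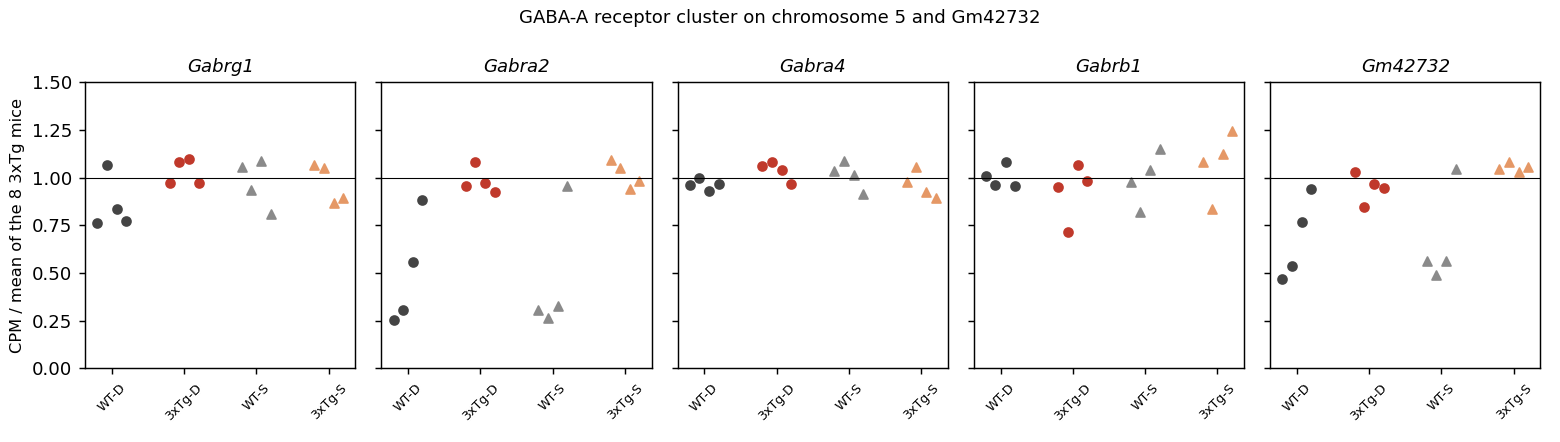
Level of the 4 GABA-A receptor genes of the chromosome 5 cluster and of Gm42732 in each mouse (4 points per group), divided by the mean of the 8 3xTg mice (horizontal line at 1). Gabra2 and Gm42732 show 5 low WT mice, and Gabrg1, Gabra4 and Gabrb1 do not.

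Gabra3 codes for the alpha-3 subunit and lies on the X chromosome (chrX:72432681-72656848, GRCm38, minus strand). Gabra3 stood at 84.2, 101, 103 and 84.9 CPM in vehicle WT mice 1 to 4 and at 102, 99.5, 109 and 82.5 CPM in treated WT mice, and at 98.2, 105, 125 and 114 CPM in vehicle 3xTg mice and 111, 129.5, 106 and 122 CPM in treated 3xTg mice. WT-D mice 1 and 4 and WT-S mouse 4 were the lowest of the 16, 3xTg-D mice 1 and 2 and 3xTg-S mouse 3 lay within the WT range, and WT-D and 3xTg-S mice did not overlap. Over both treatments it gave a log2 fold change of 0.25 ± 0.07 (SE, adjusted p = 0.0437), and was called in all 16 fits that left out a mouse (0.20 to 0.27). The adjusted threshold was missed in 12 of these 16 fits, and kept without WT-D mouse 2 or 3, WT-S mouse 3 or 3xTg-D mouse 1 (adjusted p = 0.0309 at the lowest, adjusted p = 0.122 at the highest). It was also missed with median-ratio scaling (log2 fold change 0.24, adjusted p = 0.0585) and with choroid plexus markers as a covariate (log2 fold change 0.24, adjusted p = 0.117). WT-D against 3xTg-S gave a log2 fold change of 0.31 ± 0.09 (SE, adjusted p = 0.135) and was called in 4 of 8 such fits, losing the call without WT-D mouse 1, WT-D mouse 4, 3xTg-S mouse 2 or 3xTg-S mouse 4. The other pairs gave a log2 fold change of 0.24 ± 0.09 (SE, adjusted p = 0.306) with vehicle and a log2 fold change of 0.24 ± 0.10 (SE, adjusted p = 0.412) with CAY10566, which itself gave a log2 fold change of 0.08 ± 0.07 (SE, adjusted p = 1) over both genotypes. Of the lowest WT mice, WT-D mouse 1 was low in Gabra2 as well, whereas WT-D mouse 4 and WT-S mouse 4 were the highest WT mice in Gabra2.

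Of the other GABA-A subunits among the 28 genes none was called. Gabra5, an alpha subunit mostly outside synapses and plentiful in the hippocampus, was at 207 to 262 CPM and gave a log2 fold change of -0.10 ± 0.05 (SE, adjusted p = 0.337) for genotype. Gabrb2, a beta subunit, was at 156 to 199.7 CPM. Its 3xTg-D mice all lay below the WT-D mice, though 3xTg-D mouse 4 at 176.56 CPM and WT-D mouse 4 at 176.99 CPM nearly met. Gabrb2 was one of 2 genes of the 28 without overlap between the vehicle groups, against 8.17% of all genes (Gabra2 was the other, higher). It gave a log2 fold change of -0.12 ± 0.05 (SE, adjusted p = 0.398). Gabrd, the delta subunit of receptors outside synapses on granule cells, was at 12.9 to 18.4 CPM and gave a log2 fold change of -0.03 ± 0.07 (SE, adjusted p = 0.93) for genotype and a log2 fold change of 0.0014 ± 0.07 (SE, adjusted p = 1) for CAY10566.

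Gabrg3 is a gamma subunit of low level in this tissue. Gabrg3 stood at 25.6, 27.1, 28.5 and 26.0 CPM in vehicle WT mice 1 to 4 and at 27.7, 25.03, 26.3 and 33.5 CPM in treated WT mice, and at 27.3, 23.3, 30.0 and 29.4 CPM in vehicle 3xTg mice and 30.3, 26.1, 30.6 and 39.2 CPM in treated 3xTg mice. WT-S mouse 4 and 3xTg-S mouse 4 were the highest, and these 2 mice also had the highest shares of reads outside genes, 13.1% and 15.1%. The groups overlapped, and CAY10566 gave a log2 fold change of 0.13 ± 0.08 (SE, adjusted p = 1) over both genotypes. Across the 16 mice, with group held in the fit and as an alternative added after the data were seen, 5 of 28 genes moved with that share, against 27.3% of all genes: Gabrb1, Gabrg3 and Kctd16 were higher and Gabra4 and Kctd12 lower where it was higher.

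**Figure D3:**
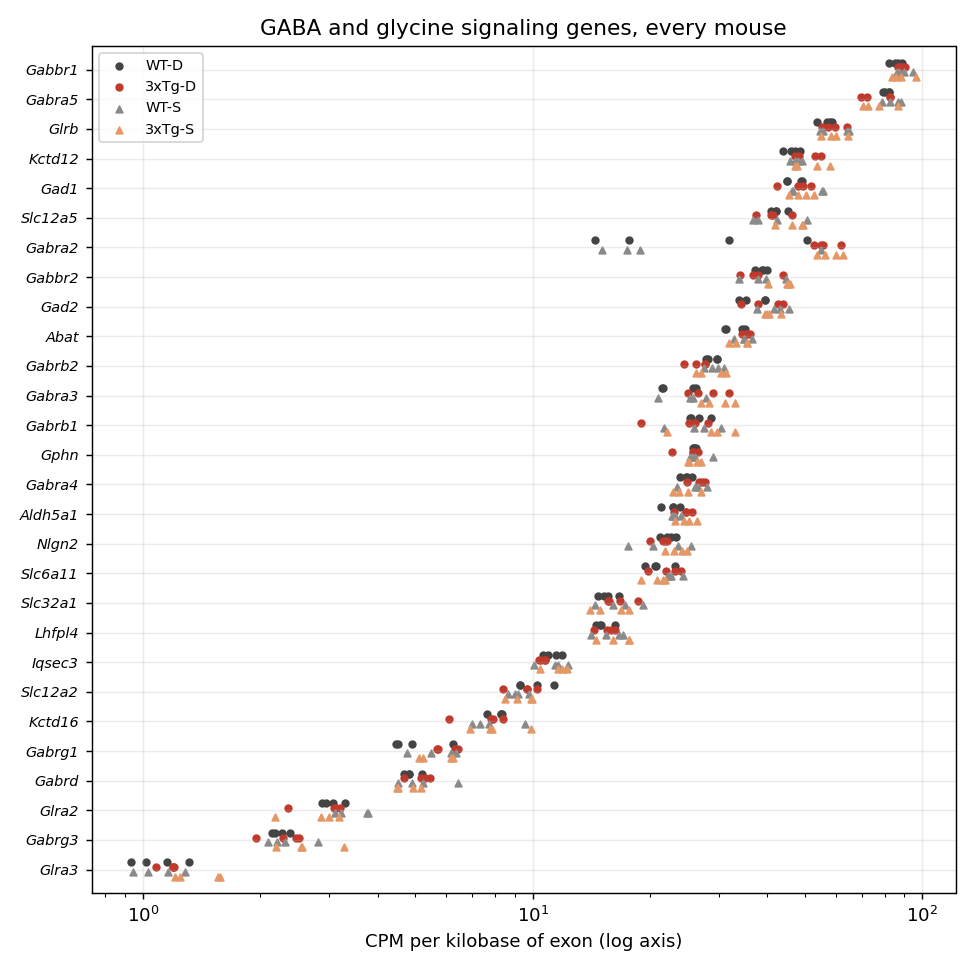
Level of each of the 28 genes in each of the 16 mice, in CPM per kilobase of exon on a log axis, ordered by mean and coloured by group. Apart from Gabra2, the 4 groups of a gene lie close together.

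Per kilobase of exon, the GABA-B receptor subunit Gabbr1 had the highest mean level of the 28 genes, 87.9 CPM per kb, followed by Gabra5 at 79.6 and the glycine receptor beta subunit Glrb at 58.8. The ranges of Gabbr1 and Gabra5 over the 16 mice overlapped, whereas those of Gabra5 and Glrb did not. Glra3, an alpha subunit of glycine receptors, was the lowest at 1.19 CPM per kb. Lengths were of all exons of a gene joined, so the level of a gene read mainly as a short transcript is understated.

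GABA-B receptors are pairs of Gabbr1, which binds GABA, and Gabbr2, which couples to the G protein. Gabbr1 was at 639 to 749 CPM and gave a log2 fold change of 0.01 ± 0.04 (SE, adjusted p = 0.935) for genotype and a log2 fold change of 0.03 ± 0.04 (SE, adjusted p = 1) for CAY10566. Gabbr2 stood at 260.3, 249, 259.9 and 266 CPM in vehicle WT mice 1 to 4 and at 226, 265, 253 and 298 CPM in treated WT mice, and at 246, 228, 253 and 293 CPM in vehicle 3xTg mice and 269, 301, 302 and 305 CPM in treated 3xTg mice. The 3xTg-S mice were all above the WT-D mice and 3 of them were above every 3xTg-D mouse, but 3xTg-D mouse 4 and WT-S mouse 4 reached nearly the same level.

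Gabbr2 had the smallest p of the 28 genes for CAY10566 in 3xTg mice, and it did not pass the threshold, a log2 fold change of 0.21 ± 0.08 (SE, adjusted p = 0.722). It was called without 3xTg-D mouse 4 (log2 fold change 0.27, adjusted p = 0.494). WT-D against 3xTg-S gave a log2 fold change of 0.17 ± 0.06 (SE, adjusted p = 0.214), which DESeq2 called (log2 fold change 0.17, adjusted p = 0.0767) and edgeR called without 3xTg-S mouse 1. Between WT-D and 3xTg-S mice 4 of 28 genes did not overlap, Gabra2, Gabra3, Gabbr2 and Gad2, all higher in 3xTg-S, against 5.13% of all genes higher without overlap. For Gad2 the groups nearly met, at 231.64 CPM in WT-D mouse 2 and 231.68 CPM in 3xTg-S mouse 2. The interaction test of Gabbr2 gave a log2 fold change of 0.20 ± 0.12 (SE, adjusted p = 0.788).

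Kctd12 and Kctd16 code for auxiliary proteins that bind GABA-B receptors and set how fast their response fades. Kctd12 was at 266 to 350.0 CPM and gave a log2 fold change of 0.13 ± 0.05 (SE, adjusted p = 0.168) for genotype, which was not a call, and was called with the share of reads outside genes as a covariate (log2 fold change 0.13, adjusted p = 0.0403). Of its exon bases, 62.8% lie opposite the transcript Gm26778, and with no strand setting stated for the counting its level is uncertain. Kctd16 was at 21.3 to 34.4 CPM and gave a log2 fold change of -0.04 ± 0.08 (SE, adjusted p = 0.921).

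GABA is made by 2 glutamate decarboxylases, Gad1 and Gad2, and loaded into vesicles by Slc32a1. Gad1 was at 323 to 424 CPM and gave a log2 fold change of -0.01 ± 0.05 (SE, adjusted p = 0.963) for genotype and a log2 fold change of 0.08 ± 0.05 (SE, adjusted p = 1) for CAY10566. Gad2 stood at 208, 232, 231 and 199 CPM in vehicle WT mice 1 to 4 and at 268, 254, 244 and 221 CPM in treated WT mice, and at 223, 201, 251 and 258 CPM in vehicle 3xTg mice and 237, 232, 255 and 235 CPM in treated 3xTg mice. WT-S mice 1 to 3 were above every WT-D mouse and WT-S mouse 4 was within their range, whereas the 3xTg-S mice lay inside the 3xTg-D range. Gad2 had the smallest p for CAY10566 in WT mice, a log2 fold change of 0.18 ± 0.08 (SE, adjusted p = 1), and over both genotypes, a log2 fold change of 0.11 ± 0.06 (SE, adjusted p = 1), and neither passed. Without WT-S mouse 4 the WT pair passed (log2 fold change 0.23, adjusted p = 0.309). Slc32a1 was at 39.4 to 53.6 CPM and gave a log2 fold change of 0.02 ± 0.07 (SE, adjusted p = 1). An antisense transcript, Gm14205, lies opposite 24.9% of its exon bases.

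**Figure D4:**
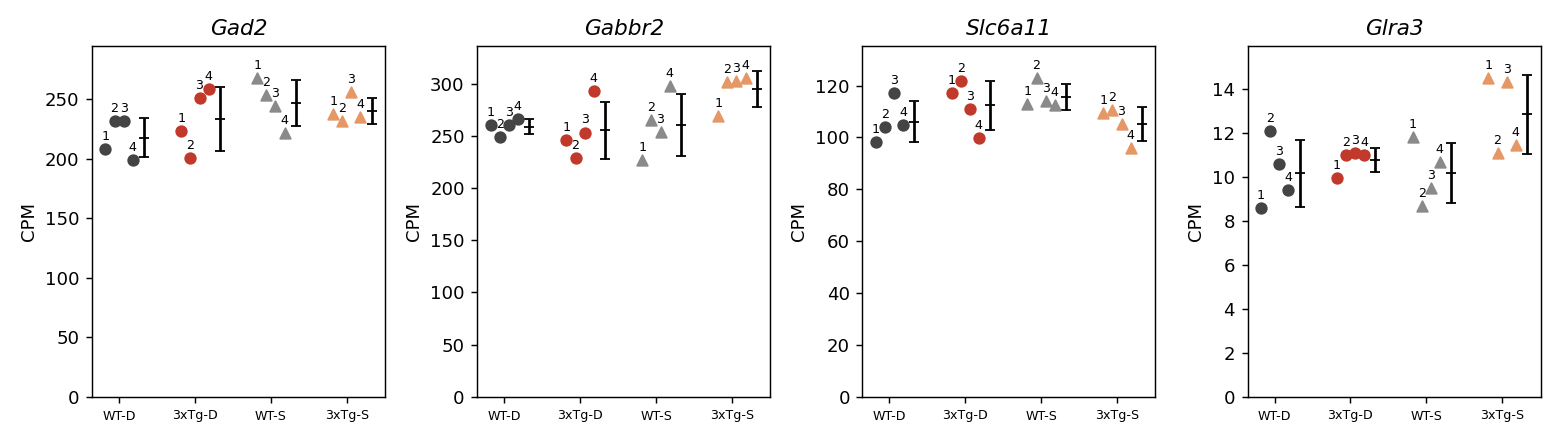
Level in CPM of Gad2, Gabbr2, Slc6a11 and Glra3 in each mouse, with the replicate number beside each point and the group mean ± SD (n = 4) as bars. None of the 4 genes passed the threshold in the tests of CAY10566 with all mice.

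Slc6a11 is the GABA transporter GAT3, found mainly on astrocytes. Slc6a11 stood at 98.1, 104, 117 and 105 CPM in vehicle WT mice 1 to 4 and at 113, 123, 114 and 112 CPM in treated WT mice, and at 117, 122, 111 and 99.8 CPM in vehicle 3xTg mice and 109, 111, 105 and 95.8 CPM in treated 3xTg mice. WT-D mouse 3 was the one vehicle WT mouse as high as the WT-S mice, and all 3xTg-S mice lay below all WT-S mice, the one gene of the 28 without overlap in that pair (3.53% of all genes lower without overlap). It had the smallest interaction p of the 28, a log2 fold change of -0.22 ± 0.10 (SE, adjusted p = 0.788), which did not pass except without 3xTg-D mouse 4 (log2 fold change -0.28, adjusted p = 0.593). CAY10566 in WT mice gave a log2 fold change of 0.13 ± 0.07 (SE, adjusted p = 1). Astrocyte markers were below 0 in 10 of 10 genes in the interaction (median log2 fold change -0.21, 0 called) and in 10 of 10 for CAY10566 in 3xTg mice (-0.20, 0 called), and their part in the values of Slc6a11 was not tested.

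GABA is broken down by the transaminase Abat and the dehydrogenase Aldh5a1. Abat was at 241 to 283 CPM and gave a log2 fold change of 0.04 ± 0.04 (SE, adjusted p = 0.806) for genotype. Aldh5a1 stood at 120.4, 129, 129.7 and 135 CPM in vehicle WT mice 1 to 4 and at 129, 131, 129 and 135 CPM in treated WT mice, and at 139, 130.4, 145 and 139.7 CPM in vehicle 3xTg mice and 142, 138, 149 and 131 CPM in treated 3xTg mice. The 3xTg mice were mostly higher, with 3xTg-D mouse 2 and 3xTg-S mouse 4 inside the WT range. It gave a log2 fold change of 0.10 ± 0.04 (SE, adjusted p = 0.152) over both treatments, short of the threshold, and 0 of 16 fits without a mouse called it. Antisense transcripts lie opposite 14.1% of its exon bases.

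Slc12a5 (KCC2) moves chloride out of mature neurons, and Slc12a2 (NKCC1) moves it in. Slc12a5 averaged 317 ± 14.1 CPM in vehicle and 312 ± 47.4 CPM in treated WT mice and 309 ± 27.7 CPM in vehicle and 347 ± 26.2 CPM in treated 3xTg mice (SD, n = 4 each). It gave a log2 fold change of 0.17 ± 0.08 (SE, adjusted p = 0.722) for CAY10566 in 3xTg mice and a log2 fold change of 0.07 ± 0.07 (SE, adjusted p = 1) over both genotypes. Slc12a2 averaged 109.8 ± 10.8 CPM in vehicle and 100.1 ± 5.19 CPM in treated WT mice and 104 ± 8.63 CPM in vehicle and 102 ± 7.65 CPM in treated 3xTg mice (SD, n = 4 each), and gave a log2 fold change of -0.08 ± 0.06 (SE, adjusted p = 1). Its highest mouse, WT-D mouse 4 at 124 CPM, was the mouse with the highest choroid plexus markers, a tissue in which this transporter is plentiful, and the part of those cells was not tested.

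At the postsynaptic side, Gphn (gephyrin) anchors the receptors, Nlgn2 (neuroligin 2) adheres to the axon terminal, Lhfpl4 joins GABA-A receptors to Nlgn2, and Iqsec3 is an exchange factor that binds gephyrin. Gphn was at 85.5 to 109 CPM, Lhfpl4 at 82.0 to 103 CPM and Iqsec3 at 137 to 167 CPM, and none was called. Nlgn2 stood at 135, 123, 128 and 131 CPM in vehicle WT mice 1 to 4 and at 101, 136, 118 and 147 CPM in treated WT mice, and at 125, 127, 116 and 128 CPM in vehicle 3xTg mice and 127, 133, 139 and 144 CPM in treated 3xTg mice. WT-S mice were the most spread, with both the lowest and the highest of the 16, and 3 of 4 3xTg-S mice were above all 3xTg-D mice. CAY10566 gave a log2 fold change of 0.14 ± 0.06 (SE, adjusted p = 0.722) in 3xTg mice, and Gphn gave a log2 fold change of -0.04 ± 0.04 (SE, adjusted p = 0.77) for genotype.

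Glycine receptors are built of alpha subunits such as Glra2 and Glra3 with the beta subunit Glrb, which binds gephyrin. Glra2 stood at 9.08, 9.32, 9.71 and 10.4 CPM in vehicle WT mice 1 to 4 and at 11.9, 10.2, 11.8 and 9.82 CPM in treated WT mice, and at 7.42, 10.1, 9.87 and 9.76 CPM in vehicle 3xTg mice and 10.0, 6.87, 9.44 and 9.02 CPM in treated 3xTg mice. WT-S mice 1 and 3 were the highest, 3xTg-D mouse 1 and 3xTg-S mouse 2 the lowest, and the groups overlapped. It gave a log2 fold change of -0.33 ± 0.13 (SE, adjusted p = 0.397) between the CAY10566 groups and a log2 fold change of 0.19 ± 0.10 (SE, adjusted p = 1) for CAY10566 in WT mice.

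Glra3 stood at 8.58, 12.1, 10.6 and 9.40 CPM in vehicle WT mice 1 to 4 and at 11.8, 8.71, 9.49 and 10.7 CPM in treated WT mice, and at 9.95, 11.0, 11.1 and 11.0 CPM in vehicle 3xTg mice and 14.5, 11.1, 14.3 and 11.4 CPM in treated 3xTg mice. All 3xTg-S mice were above all 3xTg-D mice, the one gene of the 28 without overlap in that pair (1.4% of all genes higher without overlap), though 3xTg-D mouse 3 at 11.1 CPM and 3xTg-S mouse 2 at 11.1 CPM nearly met. It gave a log2 fold change of 0.25 ± 0.11 (SE, adjusted p = 0.722) for CAY10566 in 3xTg mice, a log2 fold change of 0.32 ± 0.13 (SE, adjusted p = 0.408) between the CAY10566 groups and a log2 fold change of 0.21 ± 0.09 (SE, adjusted p = 0.271) for genotype. Glrb was at 249.7 to 301 CPM and gave a log2 fold change of 0.02 ± 0.05 (SE, adjusted p = 0.904).

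As a list, the 28 genes lay close to 0 for genotype. Over both treatments 17 were above and 11 below 0, with a median log2 fold change of 0.02, beside 53.3% of all genes above 0 and a median of 0.01. Apart from Gabra2 and Gabra3 the log2 fold changes ran from -0.18 (Glra2) to 0.21 (Glra3), with standard errors of 0.04 to 0.09. For CAY10566 over both genotypes, 25 were above and 3 below 0 (Gabra2, Gabra4 and Slc12a2), with a median of 0.04, beside 53.7% of all genes and a median of 0.01. The 26 genes other than Gabra2 and Gabra3 ran from -0.08 to 0.13, and their 95% intervals reached at most -0.19 and 0.32. By genotype, CAY10566 left 22 of 28 above 0 in WT mice (median 0.06, beside 49.9% of all genes) and 20 of 28 in 3xTg mice (median 0.04, beside 51.9%).

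**Figure D5:**
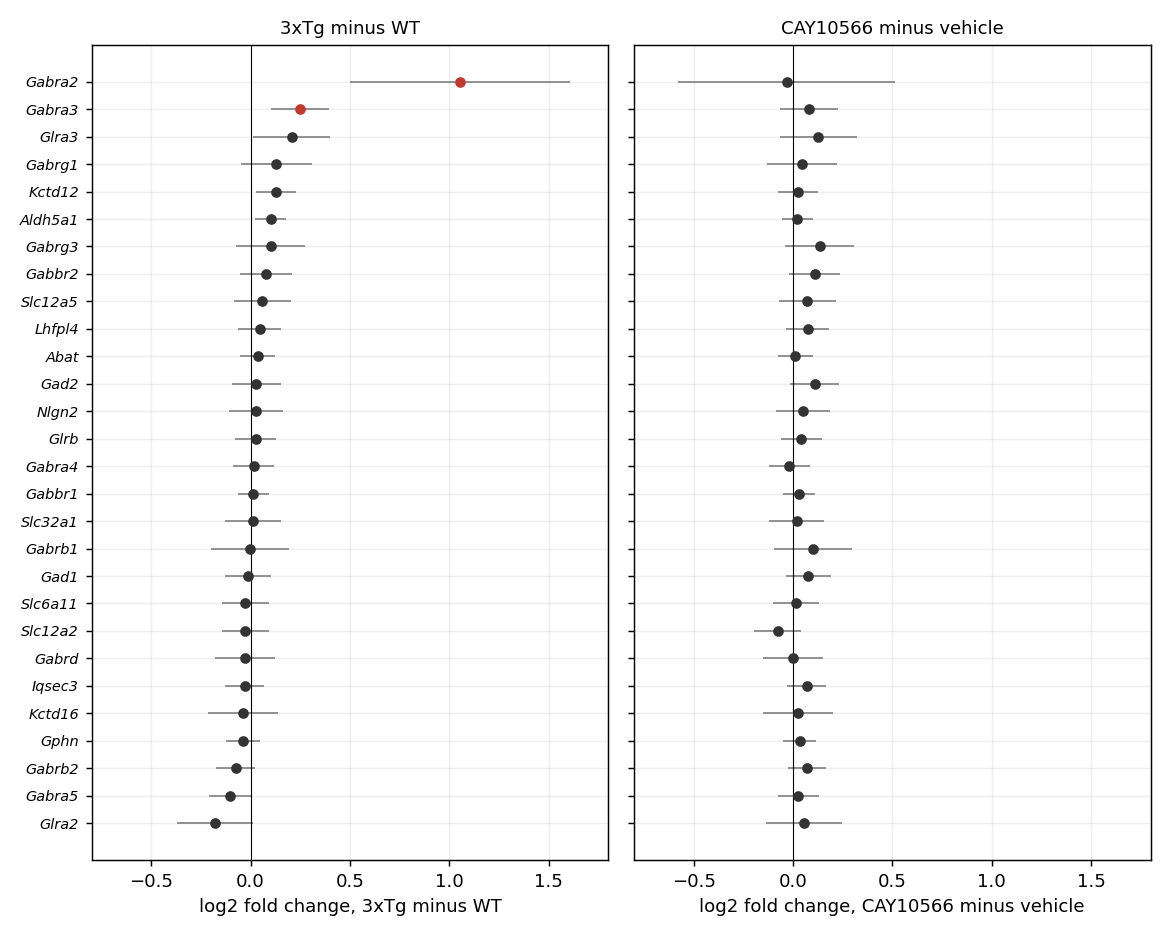
Log2 fold change of the 28 genes with 95% confidence intervals, for 3xTg minus WT over both treatments (left) and CAY10566 minus vehicle over both genotypes (right), from edgeR fits to 16 mice. Red points passed an unadjusted p of 0.01, and they are Gabra2 and Gabra3 in the left panel.

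Markers of cell types leaned in 1 direction in the same comparisons. For genotype (7.9% of all genes called), 10 of 10 endothelial markers (median log2 fold change -0.18, 0 called) and 6 of 6 tested choroid plexus markers (-1.88, 2 called, 1 of them past the adjusted threshold) were below 0. Summed choroid plexus markers were high only in WT-D mouse 4 (749.5 CPM) and WT-S mouse 1 (302 CPM). They were at 30.3 to 64.9 CPM in the other WT mice and at 30.8 to 49.7 CPM in the 3xTg mice. Between the vehicle groups 3 of 10 oligodendrocyte markers were called (4.91% of all genes), all higher in 3xTg-D and past the adjusted threshold. For CAY10566 over both genotypes (0.832% of all genes called), 10 of 10 oligodendrocyte markers (median log2 fold change -0.21, 2 called) and 10 of 10 microglia markers (-0.27, 0 called) were below 0, while 10 of 10 endothelial markers (0.11, 0 called) and 16 of 18 interneuron markers (0.11, 2 called) were above. Summed interneuron markers spanned 934 to 1105 CPM in vehicle and 1049 to 1218 CPM in treated WT mice, and 968 to 1173 CPM in vehicle and 1049 to 1207 CPM in treated 3xTg mice. Summed oligodendrocyte markers spanned 4687 to 5538 CPM in vehicle and 3669 to 5647 CPM in treated WT mice, and 6022 to 7074 CPM in vehicle and 4605 to 7147 CPM in treated 3xTg mice. Their part in the values of the 28 genes was not tested. Excitatory neuron markers had 1 of 10 genes called between genotypes (7.9% of all genes), Spink8, a marker of CA1 pyramidal cells, a log2 fold change of 1.20 ± 0.14 (SE, adjusted p = 1.44e-05), and their sum was 4495 to 5752 CPM over the 16 mice.

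Among interneuron markers, 5 of 18 were called between genotypes over both treatments, 3 higher and 2 lower, against 7.9% of all genes. The 3 with the smallest p were Vip, a peptide of interneurons that contact other interneurons, a log2 fold change of 0.47 ± 0.09 (SE, adjusted p = 0.0024), Lhx6, a transcription factor of Pvalb and Sst interneurons, a log2 fold change of 0.22 ± 0.05 (SE, adjusted p = 0.0155), and Npy, neuropeptide Y, a log2 fold change of -0.49 ± 0.15 (SE, adjusted p = 0.0739). Vip averaged 20.5 ± 2.87 CPM in vehicle and 21.9 ± 3.76 CPM in treated WT mice and 30.2 ± 2.34 CPM in vehicle and 28.4 ± 3.09 CPM in treated 3xTg mice (SD, n = 4 each), and Vip and Lhx6 passed the adjusted threshold. Between the vehicle groups 3 of 18 were called, Vip, Lhx6 and Dlx1, all higher (4.91% of all genes called), and between the CAY10566 groups 3 of 18, Npy, Tac1 and Crhbp, all lower (4.26%). Between WT-D and 3xTg-S mice 5 of 18 were called (5.69% of all genes), led by Lhx6, a log2 fold change of 0.41 ± 0.07 (SE, adjusted p = 0.019), Npy, a log2 fold change of -0.39 ± 0.08 (SE, adjusted p = 0.0524), and Nos1, a log2 fold change of 0.43 ± 0.10 (SE, adjusted p = 0.0739). CAY10566 gave 2 of 18 calls over both genotypes (0.832% of all genes), Lhx6, a log2 fold change of 0.20 ± 0.05 (SE, adjusted p = 1), and Cnr1, the cannabinoid receptor of cholecystokinin interneurons, a log2 fold change of 0.13 ± 0.04 (SE, adjusted p = 1), and 1 of 18 in WT mice (0.188%), Lhx6, a log2 fold change of 0.27 ± 0.08 (SE, adjusted p = 1). These did not pass the adjusted threshold.

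Of 18 other GABA and glycine receptor and transporter genes, 10 were tested. Between the vehicle groups 1 was called (4.91% of all genes), Gabrr2, a rho subunit of GABA-A receptors, lower in 3xTg-D, a log2 fold change of -0.95 ± 0.30 (SE, adjusted p = 0.192), at 1.31 ± 0.457 CPM in vehicle and 1.07 ± 0.219 CPM in treated WT mice and 0.677 ± 0.157 CPM in vehicle and 1.14 ± 0.530 CPM in treated 3xTg mice (SD, n = 4 each). Between WT-D and 3xTg-S mice 2 were called (5.69% of all genes), both lower: Slc6a13, a GABA transporter of the meninges and vessels, a log2 fold change of -1.09 ± 0.34 (SE, adjusted p = 0.166), and Slc6a9, the glycine transporter GlyT1, a log2 fold change of -0.23 ± 0.07 (SE, adjusted p = 0.146).

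Of 17 tested trafficking and inhibitory synapse genes, Neto2 was the one called. It was higher in 3xTg-S than WT-D (5.69% of all genes called), a log2 fold change of 0.26 ± 0.08 (SE, adjusted p = 0.134), and over both treatments (7.9%), a log2 fold change of 0.18 ± 0.05 (SE, adjusted p = 0.0524). Neto2 codes for an auxiliary protein of kainate receptors that also binds Slc12a5. Of 14 chloride balance genes 1 was called, the kinase gene Wnk3, which acts on chloride transporters. It was higher with CAY10566 in 3xTg mice (0.904% of all genes called), a log2 fold change of 0.27 ± 0.08 (SE, adjusted p = 0.722), at 57.8 ± 4.99 CPM in 3xTg-D and 69.5 ± 5.48 CPM in 3xTg-S mice (SD, n = 4 each). None of these calls passed the adjusted threshold.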

How the data were processed

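The authors trimmed reads with Trimmomatic 0.35 and aligned them with STAR 2.5.1b to GRCm38 with Gencode M23, and deposited raw counts per gene for 16 mice. The strand setting is not given in the sources used here. The 4 summary lines of the table, 24.0 to 27.8% of reads per mouse, stayed out of all totals. Within groups, counts of any pair of mice differed beyond sampling noise (chi-square over its degrees of freedom 3.78 to 45.2), so none was a copy. Each mouse is 1 sample.

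Genes were filtered by filterByExpr (minimum count 10, total 15) to 16475 of 55335 and scaled by TMM, and groups were compared pairwise, over both factors and for their interaction with edgeR 4.0.16 (R 4.3.3), in 8 two-sided quasi-likelihood tests. CPM per mouse used TMM library sizes, and CPM per kb the joined exon length of Gencode M21, in which the 28 genes have the same positions. Fits were tested on simulated data. Genes called in any test, or among the 3 smallest p-values of the 28 genes in a test, are given mouse by mouse. The call threshold is that of the study. The genes and lists were chosen with earlier results of these data known. Genes of other lists are named if among the 3 smallest p-values of those called. Alternatives were DESeq2 1.42.0, median-ratio scaling, no count filter, all 16 mice in 1 fit, a replicate block, the adjusted threshold, the share of reads outside genes or choroid plexus markers as covariate, and leaving out each mouse.

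Replicate numbers come from the sample titles. Same-numbered WT-D and WT-S mice deviated from their group means together (correlations of 0.11 to 0.34 across genes in all 4 pairs), although no source describes a pairing. Same-numbered mice of any groups were treated as matched only in the fits with the replicate block. The main fits, which gave the values for CAY10566 in WT mice, were unpaired. A result of the list of other receptor and transporter genes is not reported here.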

Additional observations from a re-analysis of the deposited data

Results flagged for a closer look

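Of 112 groups of 4 mice examined (28 genes in 4 groups), 6 had 1 mouse far from the other 3, with a gap to them above Dixon's 95% critical share of the group's range. Chance alone flags about 1 in 20 groups. Gabra2 stood at 419 CPM in WT-S mouse 4, against 115, 134 and 144 CPM in the other WT-S mice, a gap of 0.906 of the range. Kctd16 stood at 26.6 CPM in WT-D mouse 2, against 28.9 to 29.1 CPM. Gabbr2 stood at 269 CPM in 3xTg-S mouse 1, against 301 to 305 CPM. Slc6a11 stood at 123 CPM in WT-S mouse 2, against 112 to 114 CPM. Glra2 stood at 7.42 CPM and Glra3 at 9.95 CPM in 3xTg-D mouse 1, against 9.76 to 10.1 CPM and 11.0 to 11.1 CPM in the other 3xTg-D mice.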

How the results depend on the processing

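Counts of the 28 genes called are given here in the order of the 8 tests: WT-D against 3xTg-D 0, WT-S against 3xTg-S 1, WT-D against 3xTg-S 1, CAY10566 in 3xTg mice 0, CAY10566 in WT mice 0, interaction 0, genotype 2 and CAY10566 over both genotypes 0. Without the count filter the first count was 2 (Gabra2 and Gabra3) and the third 2. DESeq2 gave 0 for WT-S against 3xTg-S and 2 for WT-D against 3xTg-S, and the adjusted threshold gave 0 for both. With the share of reads outside genes as a covariate the first 3 counts were 1, 2 and 3, and with choroid plexus markers, added after the data were seen, the first was 1 (Gabra2), the second 0, and the third still 1 but Gabra2 in place of Gabra3. Leaving out 1 mouse gave 0 to 1, 0 to 1, 0 to 2, 0 to 1, 0 to 1, 0 to 1, 2 to 3 and 0 to 0 calls in the same order. None of the 24 single-gene results recomputed under the alternatives changed direction. Values near 0, such as that of Gabra2 for CAY10566, were not recomputed.

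The replicate block raised the first count to 3 (Gabra2, Gabra3 and Gabrg1), the third to 2 and CAY10566 in 3xTg mice to 1 (Gabrb1). It changed no other count of the 28, including that for CAY10566 in WT mice. Outside WT-D and WT-S the same-numbered mice did not correlate above 0.1 in every pair, but some mean correlations were as high. The mean was 0.22 for WT-D and WT-S, 0.24 for WT-S and 3xTg-S and 0.21 for 3xTg-D and 3xTg-S. It was 0.18 for WT-D and 3xTg-S and 0.04 for WT-D and 3xTg-D. Over all genes the block moved the calls from 702 to 1339 for WT-S against 3xTg-S, from 149 to 1133 for CAY10566 in 3xTg mice, from 31 to 115 in WT mice, from 137 to 226 over both genotypes and from 98 to 624 for the interaction. Without the filter these 5 counts were 1077, 355, 180, 284 and 208, and at the adjusted threshold 230, 0, 0, 0 and 0, with 305 in place of 809 for WT-D against 3xTg-D, 261 in place of 937 for WT-D against 3xTg-S and 812 in place of 1301 for genotype. Fitting all 16 mice gave 249 for CAY10566 in 3xTg mice and 48 in WT mice. The share covariate gave 49 for CAY10566 in WT mice and 228 over both genotypes. Leaving out 1 mouse moved the counts over all genes to 68 to 802 for CAY10566 in 3xTg mice (highest without 3xTg-S mouse 2, 272 without 3xTg-D mouse 4, lowest without 3xTg-S mouse 4, and 69, 92 and 88 without 3xTg-D mice 1 and 2 and 3xTg-S mouse 3), to 516 in WT mice without WT-S mouse 4, to 1545 for WT-D against 3xTg-S without 3xTg-S mouse 2, and for the interaction to 487 without 3xTg-S mouse 2, 380 without WT-S mouse 4, 220 without 3xTg-D mouse 4, 58 without 3xTg-D mouse 2 and 56 without 3xTg-S mouse 4. The cause of these moves was not tested. With 4 mice a group, differences within the intervals given were not detectable at this depth and spread.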
